A study of Mus musculus with 12 samples.

Results

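Livers of mice lacking histone deacetylase 9 (HDAC9) were compared with livers of wild-type mice on regular chow, on 6 of the 12 Affymetrix arrays of the series: 3 arrays labelled HDAC9 knockout and 3 labelled wild type, regular chow (25% of calories from fat). The remaining arrays were 3 of HDAC6 knockout livers and 3 of wild-type livers on a high fat diet (60% of calories from fat). The mice were females of the C57BL/6 strain, 8 to 12 weeks old, and RNA was taken from the whole liver. The labels call the knockouts HDAC9-/- and HDAC6-/- and give a diet for the wild-type groups only, so genotype and an unstated difference in diet cannot be told apart. The allele behind the knockout is not given in these sources, nor whether littermates served as controls. The labels number the replicates without saying that each came from its own animal, so the p-values cover only how far these samples spread, which may be technical. Arrays are called by group and replicate number below.

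HDAC9 is a class IIa histone deacetylase, a family of proteins with weak enzymatic activity of their own that bind transcription factors, above all the MEF2 family, and bring corepressor complexes with the active deacetylase HDAC3 to their target genes. They shuttle between nucleus and cytoplasm under the control of kinases. In liver, class IIa deacetylases are known for hormone-dependent control of gluconeogenesis, and HDAC9 is also known for restraining regulatory T cells.

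Expression was read for 12393 genes as log2 values, so that a difference of 1 is a doubling. A gene was called when its adjusted p was under 0.05 (limma, Benjamini-Hochberg over the 12393 genes, two-sided). Of all genes, 5 rose in the HDAC9 knockout livers (0.0403% of those tested) and 7 fell (0.0565%), together 12 (0.0968%). "Rose" and "fell" are used only of these genes. At an unadjusted p under 0.05, 308 genes were higher (2.49%) and 446 lower (3.60%), 754 in all (6.08%). All 3 knockout arrays lay above all 3 chow arrays for 668 genes (5.39%) and below them for 894 (7.21%). The genes that fell were 3 listed as male-biased in liver, 1 of them a glucuronosyltransferase, a flavin monooxygenase and a few transcripts of low signal. The genes that rose were Il1b and Rgs1 of leukocytes, the acute phase gene Orm2, lipoprotein lipase and the dehydrogenase Dhrs7.

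The arrays resembled each other closely. Their medians ranged from 5.78 to 5.86, any 2 of them correlated across probe sets at r = 0.987 to 0.997, and a difference between groups had a standard error (SE) of 0.124 in the median gene. The 14 measured hepatocyte markers had medians between 13.44 and 13.54 on all 12 arrays. Chow replicate 2 and HDAC9 knockout replicate 2 stood apart. On chow replicate 2, 11 genes lay more than 1 log2 unit below all of the other 11 arrays, against 0 to 3 elsewhere. On HDAC9 knockout replicate 2, 27 genes lay more than 1 log2 unit above all of the other 11 arrays, against 0 to 3 elsewhere. Of these 27, 18 belonged to the exocrine pancreas list. The called genes and most gene lists are therefore also given for HDAC9 knockout replicates 1 and 3 alone. Hdac9 itself gave no check of the genotype. Its probe set read 4.04, 4.17 and 4.40 in the knockout livers and 4.39, 4.33 and 4.18 in the chow livers, close to the medians of 3.51 to 3.83 that genes not known from liver had on the 12 arrays.

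The largest falls were in Hsd3b5 and Slco1a1, genes that male mouse liver expresses far more than female liver under the pulsatile growth hormone of males. Hsd3b5, a hydroxysteroid dehydrogenase that inactivates steroids, read 4.10, 4.80 and 4.56 in the knockout livers and 9.49, 8.20 and 6.63 in the chow livers. The groups did not overlap, and the chow arrays were spread over more than the knockout arrays. Hsd3b5 fell by 3.62 on the log2 scale (SE 0.618, adjusted p = 0.0463), which is 12.3-fold, with the knockout values close to background. Slco1a1, an uptake transporter for organic anions, bile acids and steroid conjugates, read 5.01, 7.39 and 6.70 against 10.86, 9.77 and 8.88 in chow. Every knockout array lay below every chow array, with replicate 1 the lowest. Slco1a1 fell by 3.47 (SE 0.589, adjusted p = 0.0463), or 11.1-fold, and its other probe set differed by -3.23. The mice are given as females, yet the chow values of both genes lay above the background medians of 3.51 to 3.83. The source of these levels of male-biased genes in chow livers, and of their spread, was not tested.

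The 250 bases upstream of the annotated starts of these genes are printed because they had the largest falls. The sequences are from RefSeq on the GRCm38.p6 assembly, on the minus strand for both: Slco1a1 at chr6:141946963-141947212 and Hsd3b5 at chr3:98645535-98645784. Capitals mark the MEF2 motif in Slco1a1 and GCGTG in Hsd3b5.
Slco1a1: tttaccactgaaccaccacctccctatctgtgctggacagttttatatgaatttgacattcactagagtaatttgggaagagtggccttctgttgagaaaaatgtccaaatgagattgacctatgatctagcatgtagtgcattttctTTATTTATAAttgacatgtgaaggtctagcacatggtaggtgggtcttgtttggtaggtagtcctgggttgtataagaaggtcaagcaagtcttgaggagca
Hsd3b5: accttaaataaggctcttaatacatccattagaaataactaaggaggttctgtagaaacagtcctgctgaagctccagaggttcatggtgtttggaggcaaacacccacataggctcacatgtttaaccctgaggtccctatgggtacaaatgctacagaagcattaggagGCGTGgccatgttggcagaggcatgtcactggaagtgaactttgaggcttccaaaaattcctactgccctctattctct

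The matching window of Orm2, the gene with the largest rise, lies at chr4:63362199-63362448 on the plus strand and held none of the motifs searched.
Orm2: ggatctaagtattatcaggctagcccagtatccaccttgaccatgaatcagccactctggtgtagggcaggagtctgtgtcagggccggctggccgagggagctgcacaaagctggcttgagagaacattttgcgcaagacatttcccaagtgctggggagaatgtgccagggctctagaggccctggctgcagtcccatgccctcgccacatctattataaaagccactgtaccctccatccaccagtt
These motifs were searched on both strands, as letters only: MEF2, bound by the main partners of HDAC9; TTCNNNGAA of STAT factors; GCGTG of the aryl hydrocarbon receptor; and the NF-kB motif. RefSeq windows were found for 9 of the 12 called genes, 12 windows in all. The MEF2 motif occurred upstream of 1 called gene, Slco1a1, 102 bases before its start, and in 2.92% of all windows and 1.82% of those of measured genes. GCGTG occurred upstream of 3 called genes (Hsd3b5, Dhrs7 and Cenpk) and in 28.2% of all windows and 39.7% of those of measured genes. The other motifs occurred in 0 of the windows of called genes, against 7.02% of all windows for TTCNNNGAA and 7.25% for NF-kB (6.0% and 8.79% of those of measured genes). A match is a run of letters, not a bound site.

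Fmo1, a flavin-containing monooxygenase that oxidises drugs and other nitrogen and sulphur compounds, read 10.63, 8.16 and 8.37 in the knockout livers and 11.60, 11.47 and 11.61 in the chow livers. The chow arrays lay close together, while knockout replicate 1 lay closer to chow than to the other knockout arrays. Fmo1 fell by 2.50 (SE 0.432, adjusted p = 0.0463), or 5.68-fold. Ugt2b1, which conjugates steroids and drugs with glucuronic acid for excretion, read 11.05, 11.13 and 11.26 against 11.86, 11.80 and 11.77. Its groups were narrow and well apart at a high signal, and it fell by 0.67 (SE 0.104, adjusted p = 0.0377), or 1.59-fold. These enzymes are expressed in hepatocytes at signals far above background.

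The other falls were in transcripts near background, where fold changes on this scale are compressed. Gpx7, a peroxidase of the endoplasmic reticulum, read 4.66, 4.49 and 4.32 against 5.30, 5.44 and 5.25 (log2 fold change -0.84, SE 0.131, adjusted p = 0.0377). Cenpk, a subunit of the inner kinetochore on which chromosomes attach to the spindle, read 4.10, 4.13 and 3.96 against 4.92, 5.06 and 4.69 (-0.82, SE 0.135, adjusted p = 0.0454). Mpp4, a membrane scaffold protein best known from photoreceptors, read 3.34, 3.50 and 3.63 against 3.93, 4.30 and 4.27 (-0.67, SE 0.117, adjusted p = 0.0463). In all of them the knockout arrays lay below the chow arrays without overlap.

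Among the rises, Rgs1 and Il1b are genes of leukocytes. Rgs1, a GTPase activator that damps chemokine receptor signalling, read 5.77, 5.87 and 5.64 in the knockout livers and 4.76, 4.60 and 4.82 in the chow livers. It rose by 1.04 (SE 0.133, adjusted p = 0.0202), or 2.05-fold, the smallest p of the comparison. The chow values of Rgs1 lie near background, which limits this size. Il1b, the cytokine interleukin 1 beta of activated macrophages and neutrophils, read 6.47, 6.42 and 6.38 against 5.49, 5.78 and 5.46. The 3 knockout values were nearly equal, and Il1b rose by 0.84 (SE 0.127, adjusted p = 0.0377), or 1.79-fold. The summed level of the 29 measured macrophage markers was 14.08 to 14.37 on a log2 scale on the knockout arrays. On the chow arrays it was 13.87 to 14.21. For the 20 neutrophil markers, which include Il1b itself, the sum was 9.47 to 10.53 on the knockout arrays and 9.07 to 9.31 on chow. The 10.53 was that of knockout replicate 2, where the marker Prtn3 read 8.71. The part of macrophages and neutrophils in the rises of Rgs1 and Il1b was not tested. In whole liver, more cells of a type and more RNA per cell cannot be told apart.

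Orm2, an orosomucoid that hepatocytes secrete in the acute phase response, read 8.37, 9.49 and 8.30 against 7.11, 7.11 and 7.28. All knockout arrays were higher and replicate 2 was the highest by more than 1 log2 unit. Orm2 rose by 1.55 (SE 0.252, adjusted p = 0.0454), or 2.94-fold. Lpl, the lipase that releases fatty acids from circulating triglyceride and that adult hepatocytes hardly express, read 9.41, 10.33 and 9.71 against 8.30, 8.57 and 8.89. It rose by 1.23 (SE 0.208, adjusted p = 0.0463), or 2.35-fold, and its second probe set differed by 1.17. Dhrs7, a short-chain dehydrogenase that reduces steroids and retinoids, read 9.58, 9.82 and 9.67 against 8.77, 8.97 and 9.09. Its knockout arrays all lay above the highest chow array, and it rose by 0.74 (SE 0.115, adjusted p = 0.0377), or 1.67-fold.

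**Figure D1:**
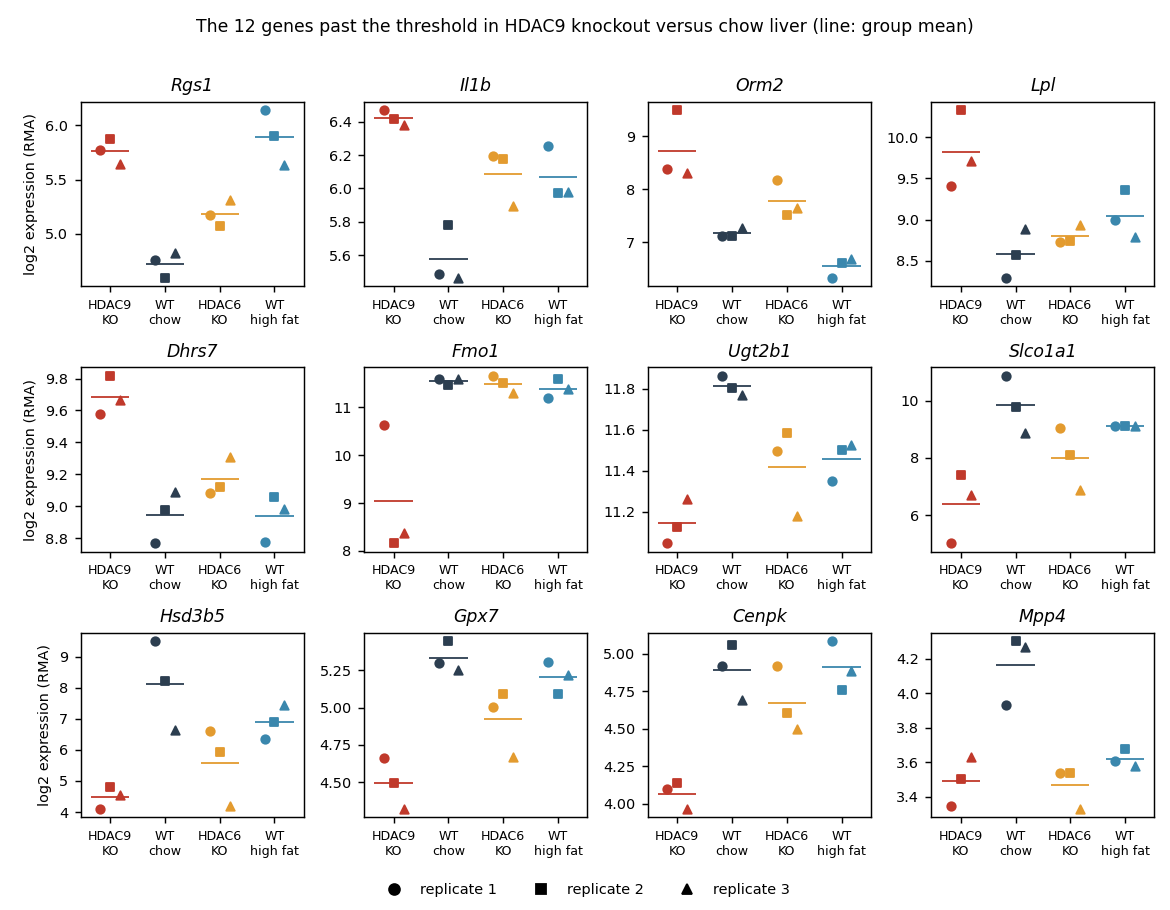
Log2 expression of the 12 called genes on each of the 12 arrays, by group, with replicate numbers as symbols and group means as lines; each panel has its own vertical scale. In every panel the 3 HDAC9 knockout arrays lie on one side of the 3 chow arrays, and Fmo1 is the panel in which knockout replicate 1, at 10.63, lies nearer to chow than to the other knockout arrays.

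The calls sat close to the threshold and depended on single arrays. Without HDAC9 knockout replicate 2, 0 genes were called by limma (729 at an unadjusted p under 0.05), as without HDAC9 knockout replicate 3 (598) or chow replicate 1 (874). Without chow replicate 2 the count was 2, without chow replicate 3 it was 7, and without HDAC9 knockout replicate 1 it was 13, of which 6 were among the 12. The split between directions moved with the scaling: after quantile normalization 4 genes were higher and 1 lower, and after centring each array on its median 5 were higher and 9 lower. Leaving out knockout replicate 1 moved Fmo1 to -3.29 (adjusted p = 8.37e-09) and Slco1a1 to -2.79, and leaving out chow replicate 1 moved Hsd3b5 to -2.93. Without chow replicate 3, Hsd3b5 stood at -4.36. Ugt2b1 and Mpp4 were called in 0 of the 6 fits that left out 1 array, and the other called genes in 1 or 2.

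On HDAC9 knockout replicates 1 and 3 alone, 0 of the 12 genes passed, with adjusted p between 0.0567 and 0.130. Sizes changed little for most. Rgs1 had 0.98, Il1b 0.84, Dhrs7 0.68, Ugt2b1 -0.66, Gpx7 -0.84, Cenpk -0.86 and Mpp4 -0.68. Orm2 (1.17), Lpl (0.98) and Fmo1 (-2.06) were smaller without replicate 2, and Slco1a1 (-3.98) and Hsd3b5 (-3.78) were larger. Both of these arrays lay above all chow arrays for 9.55% of all genes and below them for 12.8%. At an unadjusted p under 0.05, 294 genes were higher (2.37%) and 435 lower (3.51%).

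**Figure D2:**
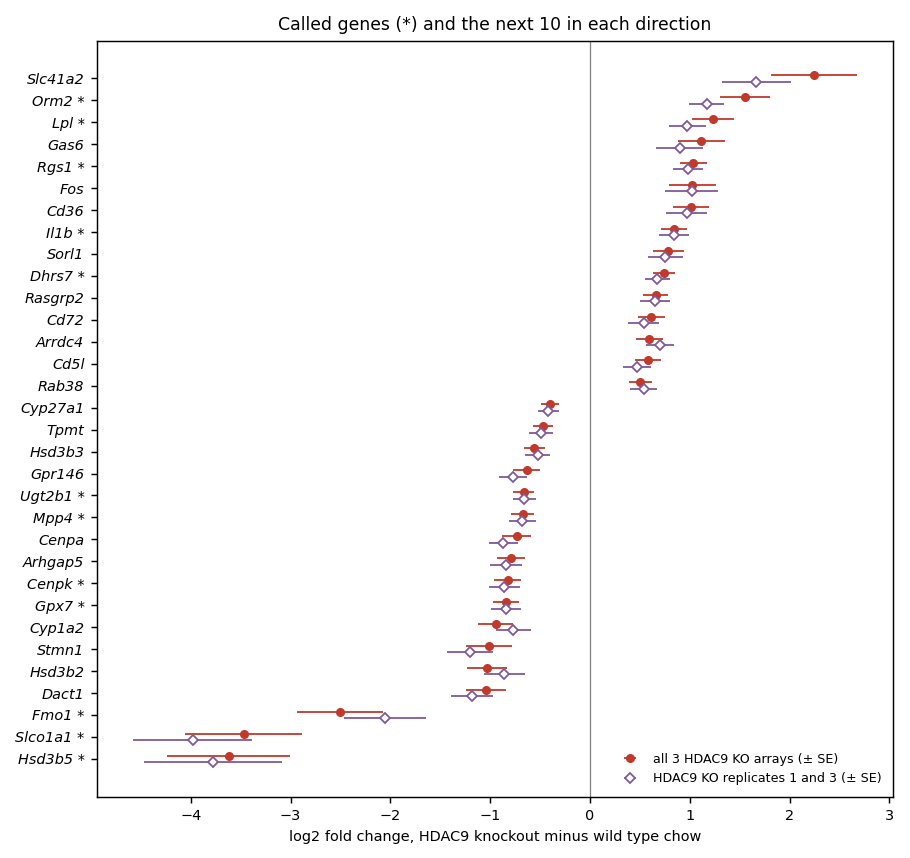
Log2 fold change (HDAC9 knockout minus chow) with its SE for the 12 called genes, marked with asterisks, and the 10 genes of next smallest p in each direction, from all 3 knockout arrays (filled circles) and from replicates 1 and 3 (open diamonds). The open symbols of Orm2 and Lpl lie closer to 0, at 1.17 and 0.98.

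The transcripts that set replicate 2 apart are digestive enzymes and secreted proteins of pancreatic acinar cells. Cela2a, an elastase, read 9.87 there and 3.74 to 5.24 on the other 11 arrays. Cpb1, a carboxypeptidase, read 8.33 against 2.86 to 4.20, Cel, the bile salt activated lipase, 8.33 against 3.11 to 4.13, and Zg16, of the zymogen granule, 8.60 against 3.19 to 4.34. These 4 genes and Prtn3, a protease of myeloid granules (8.71 against 4.02 to 4.92), had the largest distances to the next array, from 3.79 to 4.63. Ctrb1, Prss2, Pnliprp1, Rnase1 and Reg1, all pancreatic secretory genes, followed. Of the 26 measured pancreas genes, 20 were highest on replicate 2, and 12 were next highest on HDAC9 knockout replicate 1. The median level of the list was 7.21 on replicate 2, 4.31 on replicate 1, 4.01 on replicate 3 and 3.96 to 3.98 on the chow arrays. Summed over the list, the level was 12.60 on a log2 scale on replicate 2, 9.92 and 9.71 on the other knockout arrays and 9.53 to 9.78 on the chow arrays. On the high fat arrays the sum was 10.87, 10.48 and 10.13, above knockout replicates 1 and 3, and on the HDAC6 knockout arrays 9.52 to 9.70. The 11 measured islet genes did not share the pattern of replicate 2, with a median of 4.04 there and 3.90 to 4.20 on the chow arrays.

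Of the pancreas genes 24 of 26 had higher means in the knockout group, with a median difference of 1.05, and 0 were called. On replicates 1 and 3 the median was 0.11. Outside that list the genes more than 1 log2 unit above all other arrays on replicate 2 were Orm2, Slc5a1, Ptgds, Prtn3, 2210010C04Rik, Dmbt1, Adipoq, Armcx4 and Lhx6. Adipoq, a hormone of fat cells, read 4.96 there and at most 3.05 elsewhere. Lpl is both an adipocyte marker and a called gene. Of the 16 measured adipocyte markers 11 had higher means and the median difference was 0.05, and Lpl was the member called. Their summed level was 13.85 to 13.93 on the knockout arrays and 13.73 to 13.82 on the chow arrays. With pancreas and adipocyte markers taken out of the table, 11 genes were called, all among the 12. The part of these tissues in the values of Orm2 and Lpl was not tested.

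**Figure D3:**
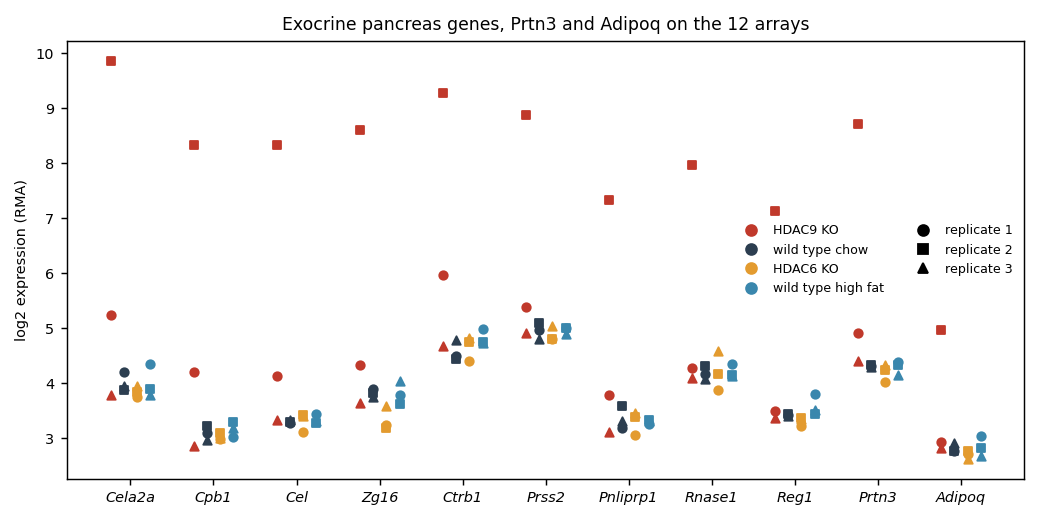
Log2 expression of 9 exocrine pancreas genes, Prtn3 and Adipoq on the 12 arrays, by group (colour) and replicate (symbol); these include the 10 genes farthest above the other arrays on HDAC9 knockout replicate 2. Replicate 2 is the highest point for each gene, for example 9.87 for Cela2a against at most 5.24 elsewhere.

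The genes next in order of p did not pass, and are given as values. On the higher side Cd36, a fatty acid transporter, read 9.27, 9.46 and 9.41 against 7.91, 8.78 and 8.42 (log2 fold change 1.01, adjusted p = 0.0560), and its 2 other probe sets differed by 1.16 and 1.09. Slc41a2, a magnesium transporter, had the largest difference among the 10 next genes on this side, 2.24 (adjusted p = 0.0840). It read 7.48, 9.98 and 9.03 against 6.57, 6.70 and 6.48. As with Fmo1, knockout replicate 1 lay closest to chow. Gas6, the ligand of the TAM receptors through which phagocytes clear dying cells, read 8.58, 9.73 and 9.58 against 8.32, 8.34 and 7.88 (1.12, adjusted p = 0.177). Without knockout replicate 1, Slc41a2 had 2.92 (adjusted p = 0.000329) and Gas6 1.48 (adjusted p = 0.00166), so that both passed in that fit.

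Of the other genes on the higher side, Cd5l, a protein secreted by tissue macrophages, differed by 0.58, the B cell receptor Cd72 by 0.61, the immediate-early factor Fos by 1.02, and the platelet and leukocyte exchange factor Rasgrp2 by 0.66, where its other probe sets showed 0.27 and 0.47. Rab38, a GTPase of pigment granules, differed by 0.50. Sorl1 and Arrdc4 had 0.78 and 0.60, but their other probe sets showed -0.03 and 0.00. In the fit without replicate 2, the long noncoding RNA Neat1 joined the 5 smallest p on the higher side, with 10.85, 9.51 and 11.39 against 9.55, 9.49 and 9.91. There knockout replicate 2 overlapped the chow arrays, and the difference was 1.47 without it (adjusted p = 0.0567) and 0.93 with it.

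On the lower side, Hsd3b2 and Hsd3b3 lie beside Hsd3b5 on chromosome 3. Hsd3b2 read 6.77, 6.47 and 7.20 against 7.87, 7.82 and 7.83 (-1.03, adjusted p = 0.0863), and Hsd3b3 read 9.69, 9.60 and 9.71 against 10.37, 10.11 and 10.20 (-0.56, adjusted p = 0.0840). Neither overlapped chow. The 3 genes are close relatives, so each signal is uncertain where a probe matches more than 1 of them. Cyp1a2, the pericentral oxidase of caffeine and aromatic amines, read 10.97, 10.28 and 10.64 against 11.52, 11.61 and 11.60 (-0.95, adjusted p = 0.0840). It passed without knockout replicate 1 (-1.12, adjusted p = 0.0280). Cyp27a1, which starts the alternative route of bile acid synthesis, differed by -0.40 and the thiopurine methyltransferase Tpmt by -0.47, where its other probe set showed -0.13.

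Cenpa, the histone H3 variant that marks centromeres, read 5.32, 5.58 and 5.03 against 5.90, 6.18 and 6.05 (-0.74, adjusted p = 0.0863). Stmn1, which destabilises microtubules in dividing cells, read 6.78, 7.24 and 6.55 against 7.93, 8.17 and 7.50 (-1.01, adjusted p = 0.229), and its other probe set differed by -0.49. Dact1, a modulator of Wnt signalling, differed by -1.04 (adjusted p = 0.0840). Arhgap5 differed by -0.79 (adjusted p = 0.0569), where its other probe sets showed -0.32 and -0.27. Gpr146, an orphan receptor of hepatocytes, differed by -0.64, where its other probe set showed 0.11.

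The called genes were also set against the other groups directly. In these direct contrasts 1 gene was called between the HDAC9 and HDAC6 knockouts, Hdac6 itself (0.00807% of genes), and 0 of the 12. The HDAC6 knockout mean lay between the HDAC9 knockout and chow means for 5 of the 5 genes that rose and 6 of the 7 that fell. The exception was Mpp4, with 3.47 in the HDAC6 and 3.49 in the HDAC9 knockout group. The high fat mean lay between them for 2 of the 5 and 6 of the 7. These genes were chosen for a wide gap between HDAC9 knockout and chow, which by itself favours such an order. Fmo1 had the largest of the log2 differences between the knockouts, -2.44 (SE 0.432, adjusted p = 0.230). Its HDAC6 knockout arrays read 11.66, 11.51 and 11.31, which overlapped chow. Against the high fat group 21 genes were higher (0.169%) and 33 lower (0.266%), 54 in all (0.436%), among them 5 of the 12. Dhrs7 (0.75, adjusted p = 0.0142) and Orm2 (2.18, adjusted p = 0.0016) were higher in the HDAC9 knockout, and Gpx7 (-0.71, adjusted p = 0.0309), Cenpk (-0.84, adjusted p = 0.0157) and Fmo1 (-2.34, adjusted p = 0.0316) were lower. Rgs1 averaged 5.89 in the high fat group, above its 5.76 in the HDAC9 knockout group.

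Gene lists are described by counts and medians beside those of all genes, whose median difference was -0.014 with 46.0% of means higher. No list was tested. Without knockout replicate 2 the median of all genes was -0.013. Of all genes 5.39% lay above chow without overlap and 7.21% below, and without knockout replicate 2 these shares were 9.55% and 12.8%. At an unadjusted p under 0.05, 2.49% of all genes were higher and 3.60% lower, or 2.37% and 3.51% without that replicate. Male-biased liver genes had lower means in 19 of 24 and a median of -0.35 (18 of 24 and -0.36 without replicate 2). Of these genes 3 fell (Hsd3b5, Slco1a1 and Ugt2b1), 8 had an unadjusted p under 0.05 on the lower side, and 6 lay below chow without overlap. On the single arrays the list median, relative to the chow mean, was -0.44, -0.13 and -0.28 in the knockout livers and 0.38, -0.02 and -0.26 in the chow livers. Chow replicate 3 thus overlapped the knockout arrays. Against the same chow mean the list median was -0.21, -0.24 and -0.63 on the HDAC6 knockout arrays. It was -0.34, -0.29 and -0.25 on the high fat arrays. Female-biased genes had higher means in 20 of 28 and a median of 0.14, with Lpl called higher and Fmo1 called lower. Without replicate 2 the median was 0.25, with 22 of 28 higher, and the genes higher at an unadjusted p under 0.05 went from 5 to 9. Cyp3a44, one of this list, read 9.28, 8.67 and 9.07 against 6.30, 8.02 and 8.18 (adjusted p = 0.523). Of 23 genes of the growth hormone axis 0 were called (median -0.04, -0.08 without replicate 2). The receptor gene Ghr had -0.23, its feedback inhibitor Socs2 -0.73, the binding protein gene Igfbp3 -0.40 and Igfbp1 0.92.

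The drug and steroid enzyme lists gave few calls outside the genes named. All 10 measured genes of the glucuronosyltransferase list had lower means (median -0.16 with and without replicate 2), and Ugt2b1 was the 1 called. Without replicate 2, 9 of the 10 were lower. Ugt2a3, Ugt2b5 and Ugt2b34 differed by -0.15, -0.16 and -0.16 and lay below chow without overlap, as did 7.21% of all genes. Ugt2b38 differed by -0.57 and Ugt2b37 by -0.15, both overlapping chow. The remaining members were Ugt3a1 (-0.09), Ugt3a2 (-0.17), Ugdh (-0.08) and Ugp2 (-0.20). Of the 4 measured flavin monooxygenases Fmo1 fell, Fmo2, Fmo4 and Fmo5 had -0.07, 0.06 and -0.19, and the 1 of these below all chow arrays was Fmo5. Of 42 drug- and lipid-metabolising cytochromes P450 27 had lower means and 0 were called (median -0.05), against 22 lower and a median of -0.02 without replicate 2. Cyp2c54 read 11.81, 10.64 and 10.58 against 12.21, 12.01 and 12.26 (-1.15, adjusted p = 0.243), again with knockout replicate 1 nearest to chow. Of 32 steroid dehydrogenases and sulfotransferases 21 had lower means (median -0.05, -0.04 without replicate 2), with Hsd3b5 called lower and Dhrs7 higher. Among 25 organic anion, cation and bile acid transporters 16 had lower means (median -0.08, -0.07 without replicate 2), Slco1a1 was the 1 called, and Slc22a7, a hepatic organic anion transporter, differed by -0.43. Glutathione genes were lower in 20 of 36 (18 without replicate 2), with Gpx7 called, and Gstt2 and Gpx3 differed upward by 0.47 and 0.45.

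Bile acid synthesis genes had lower means in 20 of 26 (median -0.15, -0.09 without replicate 2), and 0 were called. Cyp7a1, the rate-limiting enzyme of the classical route, read 9.65, 8.84 and 8.74 against 10.48, 10.70 and 10.01 (-1.32, adjusted p = 0.230). It lay below chow on all arrays, as did Cyp27a1, Cyp39a1 (-0.59) and Akr1c14 (-0.42). Of the 26 genes 6 lay below chow without overlap (23.1%, against 7.21% of all genes). Genes of the pericentral zone, around the central vein, were lower in 18 of 27, and 0 were called. At an unadjusted p under 0.05, 8 of them were lower and 1 was higher, against 3.60% and 2.49% of all genes. The pericentral array medians were 0.09, -0.32 and -0.36 in the knockout livers, so that replicate 1 stood with chow (-0.03 to 0.02). The median difference was -0.16 with replicate 2 and -0.08 without it, where 6 were lower at an unadjusted p under 0.05. Periportal genes, around the incoming vessels, were higher in 15 of 23, and 0 were called. At an unadjusted p under 0.05, 6 of them were higher and 0 lower, against 2.49% and 3.60% of all genes. Without replicate 2 the periportal median went from 0.03 to 0.13, and 3 were higher at an unadjusted p under 0.05. Among the 6 were G6pc (0.69), the last enzyme of glucose release, the histidine lyase gene Hal (0.38), the immunoglobulin transporter gene Pigr (0.40) and Ftcd (0.25).

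Gluconeogenesis and glycolysis genes had higher means in 16 of 30 (median 0.00, -0.02 without replicate 2), and 0 were called. G6pc read 11.74, 11.42 and 11.25 against 10.69, 10.71 and 10.94 (adjusted p = 0.311), without overlap, and Pck1, the other hallmark of gluconeogenesis, differed by 0.00. Pck2 had -0.48. Lipogenesis genes were higher in 20 of 30 (median 0.09, 0.06 without replicate 2) and fatty acid uptake and lipid droplet genes in 20 of 34 (median 0.03, 0.09 without it, Lpl called). PPAR-alpha targets were higher in 27 of 32, with a median of 0.10 and 0 called. Without replicate 2, 29 of 32 were higher and the median was 0.24. Their array medians were 0.43, -0.08 and -0.04 in the knockout livers and -0.12 to 0.18 in chow, and 0 lay above chow without overlap on all 3 arrays. Cholesterol genes were higher in 15 of 26 (median 0.04, 0.05 without replicate 2), with 0 at an unadjusted p under 0.05.

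The macrophage and neutrophil lists had mostly higher means. Kupffer cell and macrophage markers had higher means in 27 of 29, with a median of 0.28 (0.20 without replicate 2), 11 at an unadjusted p under 0.05 and 8 above chow without overlap, and 0 were called. Without replicate 2, 6 were higher at an unadjusted p under 0.05. With all 3 knockout arrays, 5.39% of all genes lay above chow without overlap and 2.49% were higher at that p. Cybb, of the phagocyte oxidase, read 5.39, 5.15 and 4.92 against 4.77, 4.32 and 4.77 (0.53), and the pore-forming Mpeg1 read 9.80, 9.70 and 9.67 against 9.09, 9.62 and 9.12 (0.45). The defining Kupffer marker Clec4f differed by 0.21 and overlapped chow, as did Adgre1 (0.35) and Marco (0.53). Array medians were 0.31, 0.39 and 0.10 in the knockout and -0.03, 0.21 and -0.17 in the chow livers. Chow replicate 2 thus lay above knockout replicate 3. Medians were also raised on the HDAC6 knockout arrays (0.21, 0.24 and 0.17) and the high fat arrays (0.43, 0.29 and 0.15). Neutrophil markers were higher in 18 of 20 (median 0.13, 0.16 without replicate 2), with Il1b called. Lcn2, also an acute phase gene of hepatocytes, read 7.86, 8.71 and 6.55 against 5.67, 5.39 and 6.99 (1.69, adjusted p = 0.498) and overlapped. The granule genes Mpo, Elane and Camp differed by 0.20, 0.04 and 0.10 at levels near background, and S100a8 and S100a9 by 0.60 and 0.47 with overlap. Of the other granule genes, Ngp differed by 0.34 and Prtn3 by 1.70 (adjusted p = 0.776, limma). Prtn3 read 4.92, 8.71 and 4.40 in the knockout livers, so replicate 2 set that size.

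Acute phase genes were higher in 30 of 39 (median 0.14, 0.04 without replicate 2), with Orm2 called. At an unadjusted p under 0.05, 9 were higher and 1 was lower, against 2.49% and 3.60% of all genes. Without replicate 2, 23 were higher and 5 of them had an unadjusted p under 0.05. Saa1, serum amyloid A, read 9.76, 10.96 and 9.35 against 8.39, 8.78 and 8.23 (1.56, adjusted p = 0.438), and Lrg1 read 11.68, 12.37 and 11.37 against 11.28, 10.39 and 11.10 (0.88, adjusted p = 0.403). Both were highest on replicate 2, as Orm2 was. The array medians of the list were 0.11, 0.46 and -0.03 in the knockout livers and -0.04 to 0.03 in chow. Immediate-early genes were higher in 23 of 28 (median 0.21 with and without replicate 2), and 0 were called. Of these genes 8 were higher and 1 was lower at an unadjusted p under 0.05. Besides Fos, Klf10 (0.71), Nr4a1 (0.48) and Dusp1 (0.70) had the smallest p. Their array medians, 0.14 to 0.26, all lay above those of the chow arrays, -0.09 to 0.03. HDAC6 knockout arrays had 0.04 to 0.14 and high fat arrays 0.28 to 0.41.

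Cytokine, chemokine and NF-kB target genes were higher in 26 of 39 (median 0.05 with and without replicate 2), with Il1b and Rgs1 called, and Rgs2, a relative of Rgs1, differed by 0.45 with overlap. Of 25 lymphocyte markers 14 had higher means (median 0.01), and 11 did without replicate 2 (median -0.0048), with Ighm at 1.07 and Cd3d at -0.29. Regulatory T cell markers, listed for the known role of HDAC9 in these cells, were higher in 11 of 15 (median 0.08, 0.06 without replicate 2), and 0 were called. Foxp3 itself read 2.91, 3.14 and 2.95 against 2.85, 2.91 and 2.72, levels at background. MHC class II and dendritic cell genes were higher in 8 of 16 (median 0.02), and in 12 of 16 (median 0.08) without replicate 2. Interferon response genes were higher in 26 of 35 (median 0.10, 0.09 without replicate 2), with array medians of -0.14, 0.17 and 0.34 in the knockout livers. Psmb9, a subunit of the immunoproteasome, read 8.39, 8.55 and 8.95 against 8.25, 8.15 and 8.07 (0.48, adjusted p = 0.403).

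Cell cycle and mitosis genes had lower means in 43 of 49, with a median of -0.24. At an unadjusted p under 0.05, 18 were lower (36.7%, against 3.60% of all genes) and 0 higher. Below chow without overlap lay 14 (28.6%, against 7.21% of all genes), and 0 were called. On replicates 1 and 3 alone the median was -0.29 and 26 lay below chow, as did 12.8% of all genes. The cyclin gene Ccna2 read 4.88, 5.41 and 4.88 against 5.69, 6.18 and 5.39 (-0.70, adjusted p = 0.375), the checkpoint gene Mad2l1 had -0.55 and the kinase gene Aurka -0.46. Array medians were -0.26, -0.15 and -0.30 in the knockout livers and -0.03, 0.14 and -0.10 in the chow livers, without overlap. Relative to the same chow mean, HDAC6 knockout arrays had -0.23, -0.22 and -0.18 and high fat arrays -0.03, 0.03 and -0.16. Centromere and kinetochore genes were lower in 16 of 21 (median -0.11 with and without replicate 2), with Cenpk called. Spc25 read 5.92, 5.91 and 5.83 against 6.92, 7.49 and 6.39 (-1.04, adjusted p = 0.311). Cenpb, which binds centromeric repeats, ran the other way at 0.57.

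**Figure D4:**
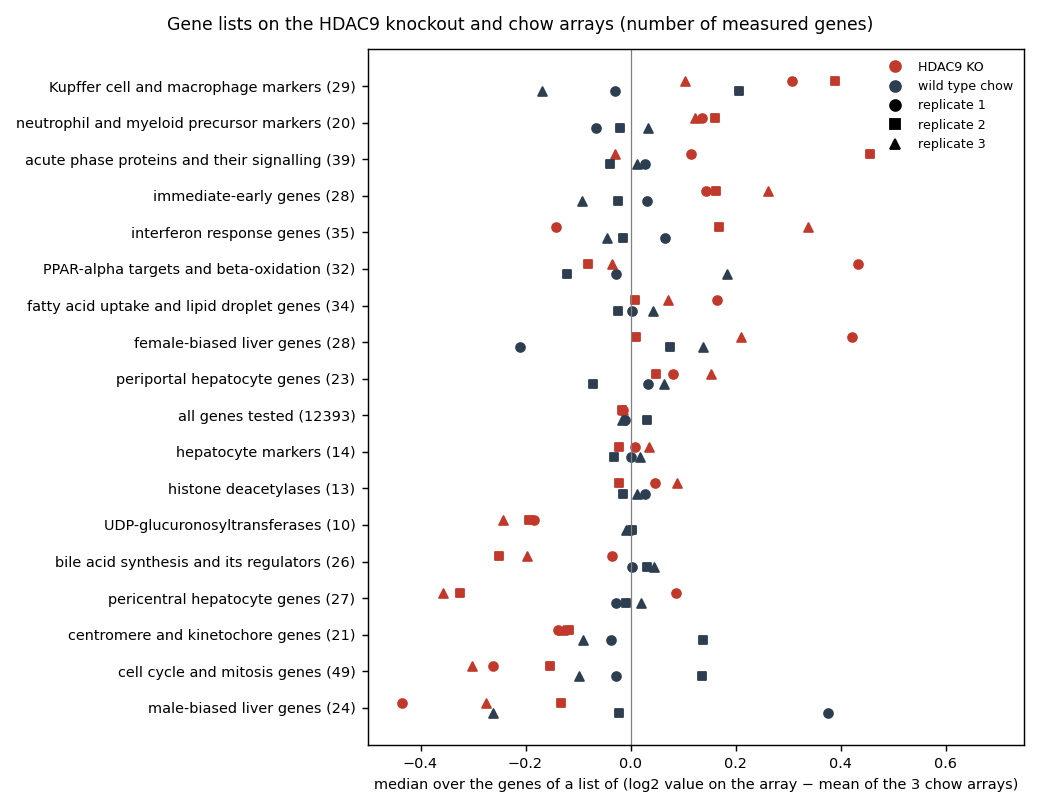
For each gene list (number of measured genes in brackets), the median over its genes of the log2 value on an array minus the mean of the 3 chow arrays, for the 3 HDAC9 knockout and the 3 chow arrays. Cell cycle genes lie between -0.30 and -0.15 on the knockout arrays and immediate-early genes between 0.14 and 0.26, while pericentral genes on knockout replicate 1, at 0.09, stand with chow.

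The deacetylase family and its partners gave no calls. Of 13 measured histone deacetylases and sirtuins 6 had higher and 7 lower means, and 0 had an unadjusted p under 0.05. The class IIa members Hdac5 and Hdac7 differed by 0.02 and 0.13, and Hdac3, the enzyme of their corepressor complex, by 0.05. Hdac6 differed by 0.07. Among 22 partners of class IIa deacetylases, Mef2d read 8.33, 8.26 and 8.44 against 8.04, 8.03 and 8.19, with a difference of 0.26 (adjusted p = 0.789) and no overlap. Mef2c, another MEF2 factor, differed by -0.22, and Sik1, a kinase that phosphorylates class IIa deacetylases, by 0.36.

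Hdac9 lies on chromosome 12 at 34047580 to 34917095 (GRCm38.p6). Within 5 Mb of it 28 genes were measured, of which 0 were called, and the median difference was -0.02. At an unadjusted p under 0.05, 1 was higher and 2 were lower, and 3 lay below chow without overlap, as did 7.21% of all genes. Ahr, the aryl hydrocarbon receptor, 0.581 Mb away, read 9.001, 8.66 and 8.72 against 9.58, 9.73 and 9.43 (-0.79, adjusted p = 0.230). Nampt, an enzyme of NAD synthesis, read 7.84, 8.27 and 8.28 against 8.56, 8.71 and 8.46 (-0.44, adjusted p = 0.592), and Pik3cg, a lipid kinase of leukocytes, differed by 0.46 with overlap. Of 10 genes of the Ahr list, Cyp1a2 was the 1 at an unadjusted p under 0.05. Cyp1a1, Cyp1b1, Tiparp and Nqo1, other targets of the receptor, differed by 0.01, 0.13, 0.21 and -0.19, and all overlapped chow.

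The remaining cell type and structural lists had medians within 0.1 of 0. Stellate cell and matrix genes were higher in 18 of 37, endothelial genes in 9 of 18, bile duct markers in 8 of 10, erythroid markers in 6 of 9 and mesothelial, muscle and gut markers in 9 of 15, and 0 were called. Of the endothelial genes 2 lay above chow without overlap, Pecam1 (0.57) and Gpr182 (0.35), and 1 lay below. Of the matrix genes 2 lay above, among them the protease gene Mmp14 (0.38), and 1 lay below. Among all genes 5.39% lay above and 7.21% below. Chaperone and unfolded protein response genes were higher in 18 of 39 and clock genes in 9 of 21, also with 0 called. Without replicate 2 the medians of all these lists also lay within 0.1 of 0.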

How the data were processed

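RNA from whole liver was measured on 12 Affymetrix Mouse430A arrays, 3 per group, after 100 ng of total RNA was amplified and labelled with biotin, per the labels. The deposited values are log2 expression per probe set, made by the authors with RMA, per the submitters' processing notes. The RMA software version and chip definition are not given in these sources. Values ran from 1.93 to 14.25, and 0 sample columns went unused. Of 22626 probe sets, 20380 had 1 gene symbol in the platform annotation, 691 several and 1555 none. Where a gene had several probe sets (4956 genes), that of highest mean over the 12 arrays was used, which left 12393 genes.

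The comparison used limma 3.58.1 in R 4.3.3 (4 group means over 12 arrays, empirical Bayes with a mean-variance trend, 14.3 degrees of freedom, Benjamini-Hochberg). The number of arrays limits the precision. The procedure was tested on simulated data. Named are all called genes, the 10 next by p in each direction, and the 5 smallest p in each direction without HDAC9 knockout replicate 2. Also named are the 10 genes farthest above the other arrays on that replicate, and some genes near Hdac9. List members named are defining cell type markers, up to 4 members of smallest p, or members of lists of 10 or fewer. Not every list has members named, and short lists are not always named in full. Members and lists were chosen with earlier results of these data known. Gene positions and promoters are from RefSeq (GRCm38.p6). Alternatives changed the variance prior, arrays, scaling, filter, probe-set rule and replicate block; taking out pancreas and adipocyte markers and the list counts without replicate 2 were added after seeing the data. Figures used Python 3.11.15 and matplotlib 3.10.9.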

Additional observations from a re-analysis of the deposited data

How the results depend on the processing

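The 12 calls of the comparison became 3 without the variance trend, 6 with a robust prior, 5 after quantile normalization, 5 with genes above the 25th percentile of mean expression, 7 with probe sets averaged per gene, and 0 in a fit of only the 6 arrays (limma, 831 genes at an unadjusted p under 0.05) or with genes above the 50th percentile (412 of 6197 genes). Leaving out 1 array gave 0 to 13. Median centring gave 14, removal of probe sets with shared-probe suffixes 13, and removal of pancreas and adipocyte markers, chosen after seeing the data, 11. The causes were not tested. With replicate number as a block 17 genes were called, 11 of them among the 12. Deviations of same-numbered knockout and chow arrays correlated at -0.04, 0.15 and -0.15. Only knockout replicate 2 correlated best with the chow array of its own number. With 3 arrays per group these values cannot decide whether the numbers pair arrays. Fold changes of the 12 called genes and the 20 next, over 17 settings, gave 525 values, of which 112 no longer passed the threshold and 12 newly passed it. List medians were near 0 and changed sign with the scaling for gluconeogenesis, lymphocyte, endothelial, hepatocyte and matrix lists. Signals near background limit the sizes for Rgs1, Hsd3b5, Gpx7, Cenpk, Mpp4 and Hdac9.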

Other observations

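Probe sets with several gene symbols or none were tested apart from the named genes. Of these 2246, 1 passed the threshold in the HDAC9 knockout against chow (limma, Benjamini-Hochberg over the 2246) and 122 had an unadjusted p under 0.05. The probe set that passed is listed with 2 gene symbols, and no gene is named for it here. It read 7.49, 7.49 and 7.50 in the knockout livers and 8.36, 8.53 and 8.15 in the chow livers. The log2 fold change was -0.86 (SE 0.114, adjusted p = 0.00605), and the knockout arrays lay below the chow arrays without overlap.

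Besides HDAC9 knockout replicate 2, chow replicate 2 was an array with many values on its own: 11 genes lay more than 1 log2 unit below the lowest of the other 11 arrays there, against 0 to 3 on any other array.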
